A study of Mus musculus with 8 samples.

Results

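Nuclear receptors are transcription factors that bind DNA through a zinc-finger domain and are switched by small lipophilic ligands such as fatty acids, oxysterols, bile acids, retinoids, and thyroid and steroid hormones. Coregulators are the proteins they recruit, coactivators that open chromatin and corepressors that close it. In hepatocytes these receptors set the rates of fatty acid oxidation, lipogenesis, bile acid synthesis, and drug metabolism, and polyunsaturated fatty acids are among the known ligands of several of them. The 37 genes described here were 32 receptors and 5 coregulators, chosen by symbol out of the 56884 genes counted in each library, and all 37 were matched to the annotation.

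The RNA came from livers of female C57BL/6J mice aged 18 months, 1 library per mouse. The livers were taken after an overnight fast in both groups. All mice were fed a high fat diet (HFD, with 45% of energy as lipids, 20% as protein, and 35% as carbohydrate) from 2 months of age, for 4 months before the groups were formed. The DIO group (diet-induced obese, n = 3, replicates 1, 4, and 5) stayed on that diet. In the DIO + DHA group (n = 5, replicates 1, 2, 4, 5, and 6), 15% by weight of the dietary lipids was replaced by a fish oil concentrate rich in docosahexaenoic acid (DHA), an n-3 polyunsaturated fatty acid, with 683.4 mg DHA and 46.7 mg of eicosapentaenoic acid (EPA) per g. No mice on a standard diet were analysed here, so each difference is between 2 obese groups, and DHA cannot be told apart from the other n-3 fatty acids or from the lipids that were replaced.

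Libraries held 1723800 to 5690347 counts, DIO replicate 1 being the shallowest. Levels are given as CPM (counts in each library per 1000000 counts, scaled by the trimmed mean of M-values, TMM) and, because reads came from the 3′ ends of transcripts and were not divided by length, they compare a gene between libraries and not genes with each other. The livers expressed the listed hepatocyte markers at summed levels of 134588 to 143304 CPM in DIO and 139190 to 149681 CPM in DIO + DHA. Other summed levels moved with the groups. The summed level of 20 skeletal muscle markers was 44.2 to 50.7 CPM in DIO and 1497 to 1610 CPM in DIO + DHA, and that of 16 Kupffer cell markers was 1095 to 1204 CPM in DIO and 621 to 662 CPM in DIO + DHA. In whole tissue, fewer cells of a type and less RNA per cell cannot be told apart.

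Of the 37 genes, 32 had enough counts to be tested with edgeR's quasi-likelihood test, and 7 were called at an adjusted p under 0.05, 3 higher and 4 lower in DIO + DHA. Among all 12412 tested genes, 15.2% were called, 7.89% higher and 7.28% lower, and 7 of 32 is a share of 21.9%, near the background. *Nr4a1*, *Nr3c2*, and *Ppard* passed the filter on low counts through the DIO + DHA group alone, where they were the higher, and 40.5% of the 509 genes that passed in this way were called. Of the other 29 genes, which passed in both groups, 6 were called, 2 higher and 4 lower, against 14.4% of 11249 such genes. The lower genes were *Hnf4a*, *Nr1i2*, *Nr1h2*, and *Esr1*, and the higher genes were *Rora*, *Rxrg*, and *Nr4a1*. The median log2 fold change was -0.03 over the 32 genes and 0.001 over all tested genes. The groups did not overlap for 3 genes above and 4 below, against 18.4% of all tested genes in either direction. The number of calls depended on the method and on 1 library. DESeq2's Wald test called 4 of the 32, against 10.6% of all tested genes. At a B statistic (the log odds of a difference) above 0, limma-voom called 1, *Hnf4a*, against 6.93% of all tested genes. Without DIO replicate 5, 2 calls were left, *Hnf4a* and *Rora*, against 11.1% of all genes tested in that fit.

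**Figure D1:**
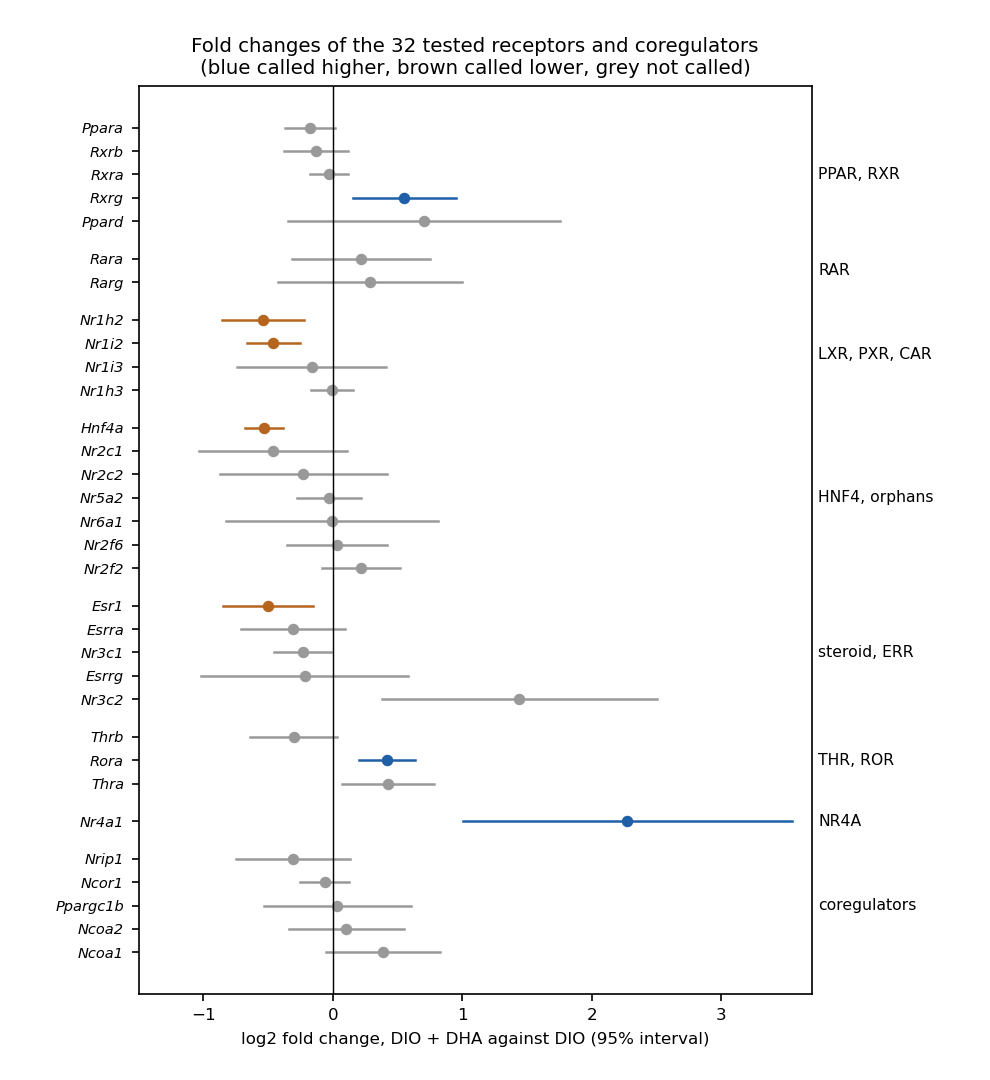
Log2 fold changes of the 32 tested genes, DIO + DHA against DIO, on the x axis, with 95% intervals from the edgeR fit as lines, grouped by receptor class. Blue and brown points were called higher and lower, and most grey intervals cross 0.

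The promoters of 4 of the called genes are shown because these genes differed between the groups. Each window runs from 250 bases before to 50 bases after the GENCODE canonical start, 5′ to 3′ on the strand of the gene, in GRCm39. *Hnf4a* is at chr2:163388819-163389118 on the plus strand, *Nr1h2* at chr7:44203331-44203630 on the minus strand, *Nr1i2* at chr16:38115167-38115466 on the minus strand, and *Nr4a1* at chr15:101164410-101164709 on the plus strand. Capitals mark matches, on either strand, to 7 searched motifs.
Hnf4a: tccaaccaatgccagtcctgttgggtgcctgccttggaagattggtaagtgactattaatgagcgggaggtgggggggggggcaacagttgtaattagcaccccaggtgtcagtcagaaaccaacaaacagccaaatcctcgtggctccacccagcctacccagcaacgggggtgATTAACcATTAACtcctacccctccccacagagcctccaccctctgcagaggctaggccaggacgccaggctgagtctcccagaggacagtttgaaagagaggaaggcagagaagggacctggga
Nr1h2: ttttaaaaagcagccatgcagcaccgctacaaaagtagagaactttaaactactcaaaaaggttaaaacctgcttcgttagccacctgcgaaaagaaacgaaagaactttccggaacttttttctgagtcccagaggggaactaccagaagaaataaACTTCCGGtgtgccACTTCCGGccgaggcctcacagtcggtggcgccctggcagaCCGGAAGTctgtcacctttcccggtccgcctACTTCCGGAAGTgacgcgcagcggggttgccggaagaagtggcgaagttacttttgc
Nr1i2: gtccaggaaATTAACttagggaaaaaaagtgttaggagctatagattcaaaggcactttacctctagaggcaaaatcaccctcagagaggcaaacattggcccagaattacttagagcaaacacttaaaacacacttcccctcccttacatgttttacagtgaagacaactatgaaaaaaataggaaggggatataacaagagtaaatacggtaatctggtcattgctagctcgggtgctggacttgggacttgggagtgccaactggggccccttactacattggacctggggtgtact
Nr4a1: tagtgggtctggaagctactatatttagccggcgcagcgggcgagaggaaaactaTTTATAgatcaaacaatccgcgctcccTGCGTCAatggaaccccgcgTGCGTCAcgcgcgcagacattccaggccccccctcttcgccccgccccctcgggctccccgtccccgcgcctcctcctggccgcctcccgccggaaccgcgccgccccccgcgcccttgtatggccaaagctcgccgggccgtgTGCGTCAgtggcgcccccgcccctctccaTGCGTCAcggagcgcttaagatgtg

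The motifs searched were AGGTCA (the half-site that nuclear receptors bind), CACGTG (E-box), TGACGTCA (cAMP response element), TATAAA (the box bound by TBP in core promoters), GTTAAT (HNF1 half-site), TGCGTCA (a variant of the cAMP response element), and ACTTCCGG (ETS site). The last 3 were added after the windows had been read. The *Hnf4a* window held GTTAAT at -75 to -70 and again at -68 to -63, both on the minus strand, a motif found in 5.66% of 12378 windows of tested genes. The *Nr1h2* window held 5 matches to ACTTCCGG, of which those at -7 to 1 and -3 to 5 overlap on opposite strands, against 6.41% of windows with any match. The *Nr4a1* window held 4 matches to TGCGTCA, found in 3.3% of windows, and the *Nr1i2* window held GTTAAT at -241 to -236. Of the 32 windows of tested receptors and coregulators, GTTAAT was in 3 (*Hnf4a*, *Nr1i2*, and *Rora*, the last called higher). TGCGTCA was in 1 of them (*Nr4a1*) and ACTTCCGG in 1 (*Nr1h2*). AGGTCA was in none of the 4 windows, in 2 of the 32 windows of tested receptors and coregulators (*Nr2f6* and *Nr6a1*), and in 14.1% of all windows. CACGTG was in 2 of the 32 (*Nr1i3* and *Thrb*) and 9.89% of all, TATAAA in 3 (*Nr5a2*, *Thrb*, and *Nr4a1*) and 9.05%, and TGACGTCA in 0 and 3.02%. A match describes the letters of the window and was not tested as a binding site.

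*Hnf4a*, which encodes hepatocyte nuclear factor 4α, the receptor that maintains hepatocyte identity, was lower in DIO + DHA. The gene (ENSMUSG00000017950.17) spans chr2:163348728-163414830. Its level was 254, 233, and 238 CPM in the DIO libraries and 156, 178, 173, 171, and 156 CPM in the DIO + DHA libraries. Every DIO + DHA library lay below every DIO library, with means of 241 ± 10.95 CPM (SD, n = 3) and 167 ± 10.04 CPM (SD, n = 5). The log2 fold change was -0.53 ± 0.07 (SE), with an edgeR adjusted p of 7.12e-08. The call held under all 10 alternative settings and in all 8 fits that left out 1 library, where the log2 fold change ran from -0.56 to -0.49. Its paralog *Hnf4g* had 1 count in each group, below the filter.

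Among 18 genes known as targets of HNF4α, a list written after the level of *Hnf4a* had been seen, 4 were higher, 5 lower, and 9 not called, with a median log2 fold change of 0.01. The share called was 50%, against 15.2% of all tested genes. *Apoa4*, an apolipoprotein of triglyceride-rich particles, rose from 543 ± 36.5 to 1635 ± 145 CPM (log2 fold change 1.59, edgeR adjusted p = 7.52e-26). Of its exon bases, 69.8% are shared with *Gm10680* and *Gm47528* on the other strand, and counting was unstranded. *Mttp*, which loads lipid onto apolipoprotein B, rose by 0.63 (adjusted p = 7.77e-08), and *Apoc3*, an inhibitor of lipoprotein lipase, by 0.29 (adjusted p = 0.000312). *Ambp*, the α1-microglobulin precursor, fell by 0.46 (adjusted p = 1.6e-08), *Tf* (transferrin) by 0.42 (adjusted p = 3.24e-08), and *Ugt2b1*, a glucuronosyltransferase, by 0.48 (adjusted p = 0.000571). *Ttr*, the transthyretin gene, was at 23372 ± 990 and 23106 ± 1425 CPM and was not called. The listed targets moved in both directions while *Hnf4a* was lower.

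*Nr1i2*, the pregnane X receptor (PXR), which senses drugs and bile acids, was lower in DIO + DHA. The gene (ENSMUSG00000022809.5) spans chr16:38068685-38115186. Its level was 59.6, 51.9, and 72.0 CPM in DIO and 43.0, 45.2, 46.7, 45.7, and 43.7 CPM in DIO + DHA, so the groups did not overlap. The DIO + DHA libraries lay close together, with an SD of 1.502 CPM, and the DIO libraries were spread, with an SD of 10.1 CPM. The log2 fold change was -0.46 ± 0.10 (SE, edgeR adjusted p = 0.000659). Without DIO replicate 5, the highest library, it was -0.28 with an adjusted p of 0.127. *Nr1i3*, the constitutive androstane receptor (CAR), was at 10.1, 5.95, and 3.02 CPM in DIO and 4.36, 7.04, 3.92, 5.15, and 4.15 CPM in DIO + DHA. These groups overlapped (log2 fold change -0.16, edgeR adjusted p = 0.794). Of the exon bases of *Nr1i3*, 74.9% are shared with *Tomm40l* on the other strand. Counting was unstranded, with no option for reads that fit several genes, so reads of *Nr1i3* may be missing and its level is uncertain.

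Of 33 tested genes known to respond to CAR or PXR, 5 were higher and 11 lower. That is 48.5% called, against 15.2% of all tested genes. *Cyp2b10*, the classical CAR target, went from 2.43 ± 0.97 CPM in DIO up to 46.3 ± 5.51 CPM in DIO + DHA, with a log2 fold change of 4.39 (edgeR adjusted p = 1.14e-25). *Alas1*, the rate-limiting enzyme of heme synthesis, fell by 1.10 (adjusted p = 7.08e-19), *Cyp2a5*, a coumarin hydroxylase, fell by 0.94 (adjusted p = 3.21e-16), and *Gstm3*, a glutathione transferase, fell by 1.07 (adjusted p = 2.6e-09). *Cyp2c54* rose by 1.11 (adjusted p = 1.07e-06) and *Ces2a*, a carboxylesterase, by 0.42 (adjusted p = 0.000125). *Gstm1* was at 1190 ± 80.9 and 1198 ± 39.4 CPM and was not called. The *Cyp2b*, *Cyp2c*, and *Gstm* genes have close copies. The counting used no option for reads that fit several places, so such reads may be missing and these values are uncertain.

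The liver X receptors (LXR) sense oxysterols and drive cholesterol efflux and lipogenesis. *Nr1h2* (LXRβ, ENSMUSG00000060601.14, chr7:44199040-44203375) was at 16.3, 19.8, and 20.4 CPM in DIO and 13.7, 10.7, 11.8, 16.2, and 13.3 CPM in DIO + DHA. The groups were separated by a narrow gap, between the lowest DIO library and DIO + DHA replicate 5. The log2 fold change was -0.54 ± 0.16 (SE, edgeR adjusted p = 0.0111), and the adjusted p was 0.056 with DESeq2, 0.0748 without DIO replicate 4, and 0.1 without DIO replicate 5. *Nr1h3* (LXRα), the main hepatic form, was at 142, 145, and 172 CPM in DIO and 145, 142, 159, 162, and 160 CPM in DIO + DHA. Its log2 fold change was -0.01, with a 95% interval of -0.17 to 0.15. *Nr1h2* supplied 10.3 to 12.0% of the counts of both LXR genes in DIO and 6.90 to 9.09% in DIO + DHA.

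Of 19 tested LXR target genes, 3 were higher and 3 lower, 31.6% called against 15.2% of all tested genes. *Scd1*, the stearoyl-CoA desaturase, rose from 368 ± 15.0 to 912 ± 54.0 CPM (log2 fold change 1.30, edgeR adjusted p = 6.93e-23). *Lpl*, lipoprotein lipase, rose by 1.15 (adjusted p = 4.6e-13), and *Fasn*, fatty acid synthase, by 0.34 (adjusted p = 0.027). The cholesterol transporter *Abcg1* fell by 0.84 (adjusted p = 0.0287), *Mylip*, which degrades the LDL receptor, fell by 0.68 (adjusted p = 0.0448), and *Apoe* fell by 0.17 (adjusted p = 0.0265). The 6 calls became 3 when DIO replicate 4 was left out, 2 when DIO + DHA replicate 1 was, and 3 when DIO + DHA replicate 5 was. *Lpl* is also an adipocyte gene and *Abcg1* a macrophage gene. The summed adipocyte markers were at 45.0 to 53.7 CPM in DIO and 104 to 136 CPM in DIO + DHA, and their part in these values was not tested.

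**Figure D2:**
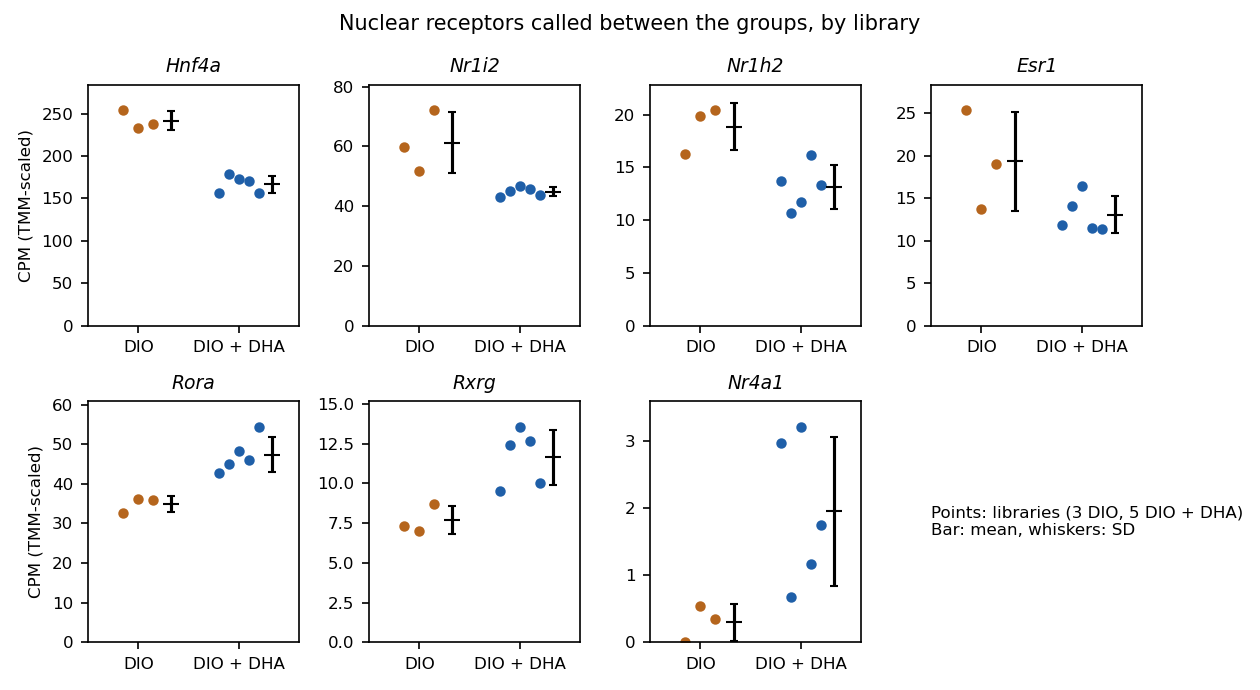
Levels of the 7 called receptors in CPM (y axis, from 0) in each DIO and DIO + DHA library (points), with the mean and SD beside them. Groups are apart for 6 genes, and *Esr1* overlaps.

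The peroxisome proliferator-activated receptors (PPAR) bind fatty acids, DHA among them, and act as partners of the retinoid X receptors (RXR). *Ppara*, the main hepatic form and the driver of fatty acid oxidation, was at 94.0, 131, and 144 CPM in DIO and 113, 106, 98.8, 127, and 112 CPM in DIO + DHA. The groups overlapped, the shallow DIO replicate 1 being the lowest of all libraries. The log2 fold change was -0.18 ± 0.10 (SE, 95% interval -0.37 to 0.02, edgeR adjusted p = 0.251). Without DIO replicate 1 it was -0.29 with an adjusted p of 0.0156, and without DIO replicate 5 it was -0.04 with an adjusted p of 0.875. *Ppard*, the widely expressed form, had 13 counts in DIO and 32 in DIO + DHA, and per library was at 0, 0.721, and 1.597 CPM and at 1.59, 1.01, 2.497, 1.17, and 1.97 CPM. Its log2 fold change of 0.71 was not called (edgeR adjusted p = 0.438).

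*Rxra* (RXRα), the common partner in hepatocytes, was at 206, 235, and 230 CPM in DIO and 237, 218, 205, 210, and 228 CPM in DIO + DHA. The values of both groups covered the same span, and the log2 fold change was -0.03 with a 95% interval of -0.18 to 0.12. *Rxrb* was at 29.98 ± 3.31 and 28.2 ± 2.79 CPM and was not called. *Rxrg* (RXRγ, ENSMUSG00000015843.11, chr1:167425953-167467192), a form known from muscle and brain, was at 7.31, 7.03, and 8.69 CPM in DIO and 9.52, 12.4, 13.6, 12.6, and 10.05 CPM in DIO + DHA. The groups were apart, all 5 DIO + DHA libraries being the higher ones (log2 fold change 0.55 ± 0.20 SE, edgeR adjusted p = 0.0474). This call stood close to the threshold. It was lost in 6 of 8 fits that left out 1 library (without any 1 of the 3 DIO libraries or DIO + DHA replicate 2, 4, or 5), where the adjusted p ran from 0.0338 to 0.232, and under 5 of 10 alternatives. *Rxrg* supplied 2.59 to 3.19% of the counts of the RXR genes in DIO and 3.45 to 5.41% in DIO + DHA. The skeletal muscle markers moved the same way, and their part in *Rxrg* was not tested.

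Of 47 tested genes known as targets of PPARα, 29 were higher and 2 lower in DIO + DHA, with a median log2 fold change of 0.33, while *Ppara* was not called. The share called was 66%, against 15.2% of all tested genes. *Acot1*, an acyl-CoA thioesterase, rose from 143 ± 5.59 to 357 ± 16.0 CPM (log2 fold change 1.32, edgeR adjusted p = 1.18e-21). *Ehhadh*, of peroxisomal β-oxidation, rose by 1.25 (adjusted p = 7.68e-21), and the lipid droplet gene *Cidec* rose by 2.39 (adjusted p = 1.25e-20). *Fabp1*, the liver fatty acid binding protein, rose from 15068 ± 725 to 22354 ± 1656 CPM (log2 fold change 0.57, adjusted p = 2.22e-11). *Acot3*, a peroxisomal thioesterase, fell by 0.61 (adjusted p = 3.24e-08), and *Fitm1*, of lipid droplet formation, fell by 0.35 (adjusted p = 0.00419). *Acot1* and *Acot3* have close paralogs, which makes their values uncertain, and 32.6% of the exon bases of *Acot3* are shared with other genes. *Cidec* is also an adipocyte gene. The summed adipocyte and skeletal muscle markers were higher in DIO + DHA as well, and their part in the PPARα list was not tested.

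The retinoic acid receptors (RAR) bind all-trans retinoic acid. *Rara* was at 5.02 ± 0.55 and 5.78 ± 2.41 CPM and *Rarg* at 2.15 ± 1.68 and 3.12 ± 0.53 CPM, and neither was called. *Rarb*, below the filter, had 1 count in DIO and 11 in DIO + DHA, a ratio of 7.24 with a 95% counting interval of 1.05 to 312. Its 38.4% of exon bases shared with other genes add to that uncertainty. Of 9 tested RAR targets, 1 was higher and 2 lower, 33.3% called against 15.2% of all tested genes. *Rarres1* rose by 0.83 (edgeR adjusted p = 1.11e-06), *Tgm2*, a transglutaminase, fell by 0.49 (adjusted p = 5.04e-06), and *Lrat*, which esterifies retinol in stellate cells, fell by 1.03 (adjusted p = 0.00183). *Dhrs4*, a retinal reductase, was at 290 ± 6.89 and 289 ± 16.3 CPM and was not called. *Vdr*, the vitamin D receptor, had 0 counts in all 8 libraries, which allows up to 0.232 CPM in DIO and 0.152 CPM in DIO + DHA.

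The estrogen receptor gene *Esr1* (ENSMUSG00000019768.17, chr10:4561593-4955614) was at 25.3, 13.7, and 18.99 CPM in DIO and 11.9, 14.1, 16.4, 11.5, and 11.4 CPM in DIO + DHA. The groups overlapped, DIO replicate 4 lying below 2 of the DIO + DHA libraries. The log2 fold change was -0.50 ± 0.17 (SE, edgeR adjusted p = 0.0375), and the call was lost in 5 of 8 fits that left out 1 library (DIO replicate 1 or 5, or DIO + DHA replicate 1, 5, or 6), where the adjusted p ran from 0.00674 to 0.224. The related receptors *Esrra* and *Esrrg*, which drive mitochondrial genes without a known hormone, were at 11.9 ± 3.88 and 9.94 ± 2.37 CPM and at 2.24 ± 0.29 and 1.87 ± 0.68 CPM, and neither was called.

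*Nr3c1*, the glucocorticoid receptor (GR), was at 47.8, 42.2, and 41.5 CPM in DIO and 39.1, 39.5, 33.2, 39.1, and 32.3 CPM in DIO + DHA. All DIO + DHA libraries lay below all DIO libraries, but the difference did not pass the test across genes (log2 fold change -0.23 ± 0.11 SE, edgeR adjusted p = 0.167). *Nr3c2*, the mineralocorticoid receptor, had 10 counts in DIO and 42 in DIO + DHA, a ratio of 2.77 with a 95% counting interval of 1.37 to 6.18. This interval pools the libraries and leaves out the spread between mice. The gene was tested only because of its DIO + DHA counts. Per library it was at 0, 1.08, and 0.710 CPM and at 2.78, 1.01, 2.497, 3.04, and 1.09 CPM, and the groups overlapped. Its edgeR adjusted p was 0.0558, so it was not called. The adjusted p was 0.0373 and 0.0253 without DIO + DHA replicate 2 or 6, and 0.065 to 0.187 in the other fits that left out 1 library.

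Of 25 tested glucocorticoid-responsive genes, 6 were higher and 12 lower, with a median log2 fold change of -0.35. The share called was 72%, against 15.2% of all tested genes. *Fkbp5*, the GR co-chaperone, fell from 104 ± 1.55 to 51.4 ± 5.23 CPM (log2 fold change -1.02, edgeR adjusted p = 8.14e-14). *Errfi1*, an inhibitor of the EGF receptor, fell by 0.90 (adjusted p = 8.02e-18), and *Mt1*, a metallothionein, fell by 0.57 (adjusted p = 7.86e-09). *Got1*, an aspartate aminotransferase, rose by 0.94 (adjusted p = 3.62e-15), and the cell cycle inhibitor *Cdkn1a* by 0.85 (adjusted p = 1.97e-11).

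Thyroid hormone receptors drive lipid turnover in the liver, mainly through the β form. *Thrb* was at 18.4 ± 5.99 and 13.7 ± 1.02 CPM and was not called (edgeR adjusted p = 0.261). *Thra* was at 10.9 ± 1.22 and 14.8 ± 2.98 CPM and was not called (edgeR adjusted p = 0.101), but passed without DIO + DHA replicate 2 (adjusted p = 0.0463). Of the counts of both genes, *Thra* held 27.4 to 44.4% in DIO and 41.6 to 59.0% in DIO + DHA, which overlap. Of 14 tested thyroid hormone targets, 4 were higher and 4 lower, 57.1% called against 15.2% of all tested genes. *Thrsp* (Spot14), of lipogenesis, fell by 0.69 (adjusted p = 1.39e-10), and *Klf9*, also on the glucocorticoid list, fell by 0.37 (adjusted p = 0.000432). *Gpd2*, a mitochondrial glycerol-3-phosphate dehydrogenase, rose by 0.39 (adjusted p = 0.0195), and *G6pc*, of glucose release, rose by 0.59 (adjusted p = 1.35e-06).

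*Rora* (ENSMUSG00000032238.18, chr9:68561068-69295528), the receptor RORα, which activates clock genes at sites that the REV-ERB repressors share, was higher in DIO + DHA. Its level was 32.6, 36.1, and 36.0 CPM in DIO and 42.8, 44.9, 48.2, 46.1, and 54.4 CPM in DIO + DHA. The groups did not overlap, and the 3 DIO libraries had an SD of 1.97 CPM. The log2 fold change was 0.42 ± 0.11 (SE, edgeR adjusted p = 0.00384). The call held in all 8 fits that left out 1 library and in 9 of 10 alternatives, limma-voom being the exception. RORα is also expressed in muscle, whose markers rose, and their part in *Rora* was not tested.

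Of 16 tested genes controlled by REV-ERB and ROR, 1 was higher and 10 lower, with a median log2 fold change of -0.65. The share called was 68.8%, against 15.2% of all tested genes. *Ciart*, a clock repressor, fell from 32.2 ± 6.10 to 6.63 ± 0.57 CPM (log2 fold change -2.26, edgeR adjusted p = 4.64e-17), and the clock-output factor *Tef* fell by 0.66 (adjusted p = 7.71e-08). *Nfil3* rose by 0.52 (adjusted p = 0.0358). The hour at which livers were taken is not given in the sources used here, so time of day and diet cannot be told apart for clock genes.

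*Nr4a1* (Nur77, ENSMUSG00000023034.8, chr15:101152150-101172676), an immediate early gene without a classical ligand, rested on few reads, 5 counts in DIO and 39 in DIO + DHA. It was at 0, 0.541, and 0.355 CPM in DIO and 2.98, 0.670, 3.21, 1.17, and 1.75 CPM in DIO + DHA. The groups did not overlap, but DIO + DHA replicate 2 with 2 counts lay near the DIO libraries. DIO replicate 1, the shallowest library, had 0 counts, which allows up to 1.69 CPM. That limit lies above DIO + DHA replicates 2 and 5, so the separation is uncertain. The pooled ratio was 5.14 with a 95% counting interval of 2.02 to 16.7, and the edgeR adjusted p was 0.0075, or 0.0536 without DIO replicate 5. All 3 DIO libraries had under 5 counts, so the gene was tested only because of its DIO + DHA counts, and it was not tested under edgeR's own filter (filterByExpr) or with a minimum of 10 counts in every library. *Nr4a1* is expressed in muscle, and the part of the muscle RNA was not tested. *Nr4a2*, below the filter, had 5 and 7 counts.

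The remaining receptors, all without an established hormone, showed no call. *Nr5a2* (LRH-1), a regulator of bile acid synthesis, was at 32.4 ± 3.83 and 32.2 ± 4.28 CPM. *Nr2f2* (COUP-TFII), known from venous endothelium, was at 17.0 ± 1.93 and 19.4 ± 2.03 CPM, and *Nr2f6* at 10.4 ± 1.27 and 10.5 ± 2.17 CPM, with 54.4% of its exon bases shared with *Ocel1*. *Nr2c1* was at 3.38, 7.03, and 3.90 CPM in DIO and 3.57, 3.02, 2.85, 3.747, and 4.80 CPM in DIO + DHA (log2 fold change -0.46, edgeR adjusted p = 0.324). These values overlapped, DIO replicate 4 being the highest. *Nr2c2* was at 3.06 ± 1.24 and 2.96 ± 0.47 CPM and *Nr6a1* at 4.12 ± 3.26 and 3.16 ± 0.49 CPM. Of the exon bases of *Nr2c2*, 31.2% are shared with *Gm44249* and *Mrps25*. *Nr2f1*, below the filter, had 8 counts in DIO and 17 in DIO + DHA.

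**Figure D3:**
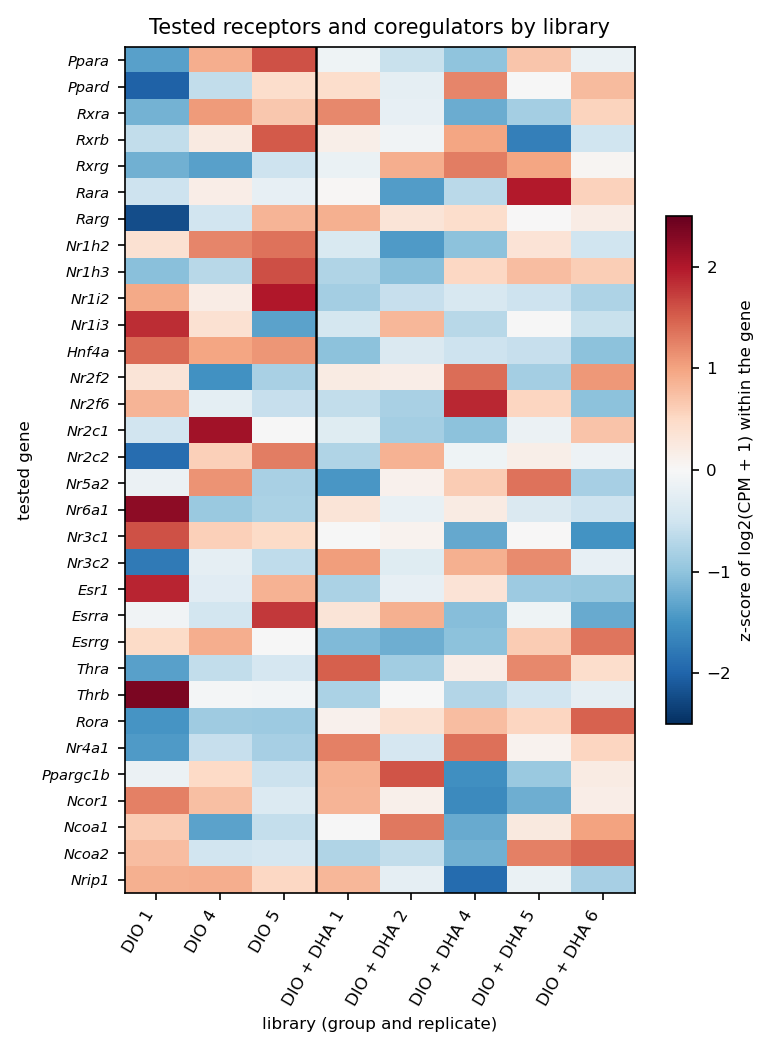
Each of the 32 tested genes (rows) in each library (columns, the line parts DIO from DIO + DHA), as the z-score within the gene of log2(CPM + 1). *Hnf4a*, *Nr1i2*, *Nr1h2*, and *Nr3c1* are higher in all 3 DIO libraries, *Rora*, *Rxrg*, and *Nr4a1* in all 5 DIO + DHA libraries, and the other rows overlap.

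None of the 5 coregulators was called by edgeR, DESeq2, or limma-voom, and 0 had an unadjusted edgeR p under 0.05. Among all 12412 tested genes, edgeR called 15.2%, and 3135 had such an unadjusted p. With 5 genes, a count of 0 does not set them apart from that background. *Ncor1*, the corepressor that unliganded receptors bind, was at 62.6 ± 3.05 and 59.4 ± 3.67 CPM (log2 fold change -0.06, 95% interval -0.25 to 0.13). The p160 coactivators *Ncoa1* and *Ncoa2* were at 7.78 ± 2.13 and 9.39 ± 2.35 CPM and at 7.40 ± 0.90 and 7.57 ± 1.57 CPM. *Nrip1* (RIP140), a corepressor of metabolic genes, was at 8.24 ± 0.38 and 6.47 ± 1.35 CPM, and *Ppargc1b* (PGC-1β), a coactivator of mitochondrial and lipogenic genes, at 4.00 ± 0.30 and 4.09 ± 0.74 CPM. The 95% interval for *Ppargc1b*, -0.53 to 0.60 on the log2 scale, leaves room for changes in either direction.

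Other genes of these families, listed for comparison, included 7 tested receptors, of which 1 was higher and 4 lower, and 3 were called without DIO replicate 5. With all libraries the share called was 71.4%, against 15.2% of all tested genes. *Nr0b2* (SHP), the repressor induced by the bile acid receptor, rose from 17.3 ± 3.07 to 38.9 ± 2.03 CPM (log2 fold change 1.21, edgeR adjusted p = 8.93e-11). The bile acid receptor itself, *Nr1h4* (FXR), fell from 104 ± 3.98 to 78.8 ± 4.97 CPM (log2 fold change -0.40, adjusted p = 0.000318). *Nr1d2* (REV-ERBβ) fell by 0.67 (adjusted p = 5.01e-05). Of 35 other tested coregulators, 1 was called, a share of 2.86% against 15.2% of all tested genes. *Ppargc1a* (PGC-1α), the inducible coactivator of PPAR and ERR targets, rose from 7.97 ± 1.24 to 34.7 ± 4.76 CPM (log2 fold change 2.04, adjusted p = 7e-16).

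Of 16 tested targets of FXR and LRH-1, 4 were higher and 4 lower, and 5 in all were called without DIO replicate 4. With all libraries the share called was 50%, against 15.2% of all tested genes. *Insig2*, a brake on sterol synthesis, rose by 1.24 (edgeR adjusted p = 3.77e-20) and *Cyp8b1*, which sets the cholic acid share of bile acids, by 0.92 (adjusted p = 2.7e-16). *Fgf1* fell by 0.35 (adjusted p = 0.0027) and *Baat*, of bile acid conjugation, by 0.26 (adjusted p = 0.0163). Of 32 tested targets of ERR and PGC-1, 12 were higher and 0 lower at an adjusted p under 0.05, with a median log2 fold change of 0.17. The share called was 37.5%, against 15.2% of all tested genes. *Slc25a4*, the ADP/ATP carrier of heart and muscle, rose from 23.1 ± 2.83 to 187 ± 9.65 CPM (log2 fold change 2.98, adjusted p = 5.2e-32). *Pdk4*, which spares glucose and is also on the PPARα list, rose by 2.28 (adjusted p = 9.85e-14), and *Cycs*, cytochrome c, by 0.59 (adjusted p = 1.02e-07). *Cox6a1*, the liver form of a cytochrome oxidase subunit, was at 1026 ± 65.2 and 1060 ± 62.4 CPM and was not called. The part of the skeletal muscle RNA in the ERR and PGC-1 list and in *Ppargc1a* was not tested.

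**Figure D4:**
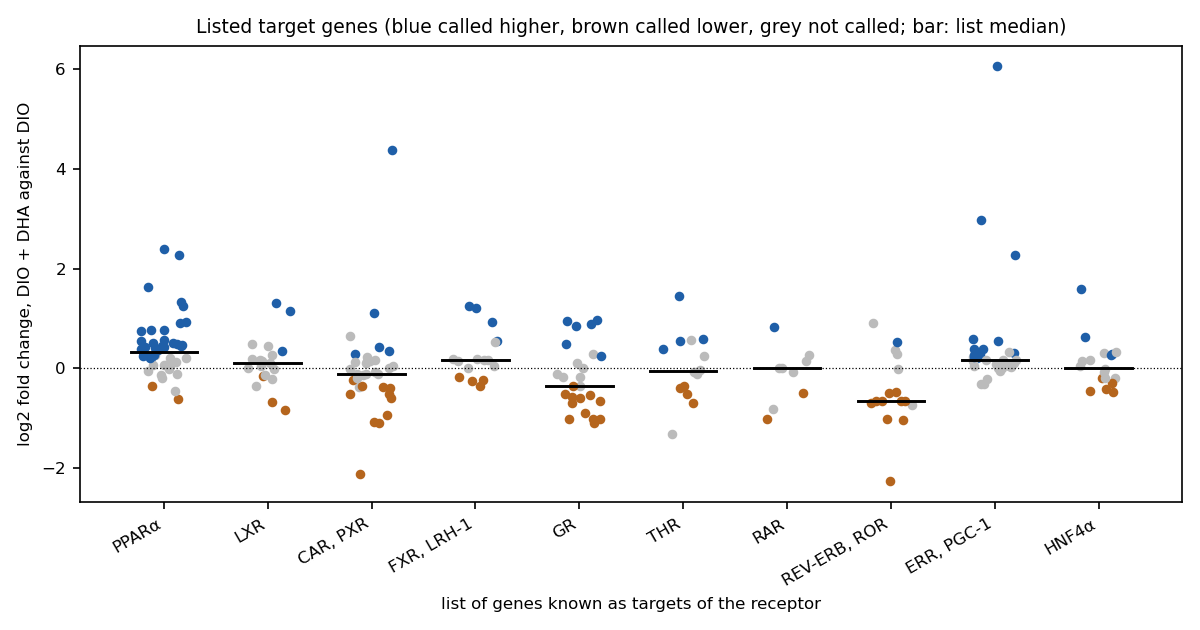
Log2 fold changes (y axis, DIO + DHA against DIO) of the tested genes in each list of receptor targets (x axis), with the list median as a bar. PPARα targets lie mostly above 0, REV-ERB and ROR targets mostly below, and HNF4α targets on both sides; the ERR and PGC-1 point at 6.06 is *Perm1*, a muscle gene at 0 in all DIO libraries, named after its values were seen.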

How the data were processed

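Liver RNA of 8 mice, 3 DIO and 5 DIO + DHA, was measured by 3′-end RNA sequencing, and groups were taken from the sample labels. After trimming, the authors mapped reads to GRCm39 with STAR 2.7.9a and assigned them to genes with featureCounts 1.6.0, and the deposited values are raw counts per gene without normalization. Counting was unstranded, and whether molecular identifiers were collapsed is not given in the sources used here, so intervals and limits made from counts hold counting error only. Gene names were taken from GENCODE mouse release M39, and coordinates from the deposited tables.

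Following the filter of the study's methods, a gene was dropped if, in both groups, over 50% of libraries had under 5 counts. The remaining 12412 genes were fitted with edgeR 4.0.16 (TMM factors, robust quasi-likelihood test, two-sided) in R 4.3.3, with Benjamini-Hochberg adjustment over all of them and a threshold of 0.05. The SE was the log2 fold change divided by the square root of F. CPM are means ± SD over 3 DIO and 5 DIO + DHA libraries. On simulated data the fit made no call of the wrong sign, but false calls were a larger share of its calls than the threshold allows. Alternatives were DESeq2 1.42.0 (Wald test and size factors), limma 3.58.1 (voom, B above 0, the rule of the study), library-size scaling, TMM without genes of other tissues, 3 other filters, a threshold of 0.01, a replicate block, and leaving out each library. For few counts, a ratio of pooled counts with an exact 95% interval was used, and 0 counts allowed up to 3 counts per group or library.

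The genes and lists were chosen with earlier results of these data known, and the HNF4α list, the promoter windows, and their motifs after the values were seen. Levels in every library were given for each called gene, for *Ppara*, *Rxra*, *Nr1h3*, *Nr1i3*, *Hnf4a*, and *Nr3c1*, and for the 3 tested but uncalled genes with the largest changes. From each other list, up to 3 genes called in each direction with the smallest p and the gene with the highest mean CPM could be named. Lists share genes, and each count is a description, with no test of the list.

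Marker lists not given elsewhere had these summed levels, in CPM: endothelial 293 to 313 in DIO and 231 to 269 in DIO + DHA, stellate 521 to 556 and 484 to 503, T and NK cell 152 to 172 and 54.8 to 64.2, B cell 274 to 310 and 224 to 253 (*Mzb1* at 0), cholangiocyte 61.1 to 67.5 and 60.9 to 75.3, squamous 177 to 193 and 266 to 280, and smooth muscle 9.40 to 12.6 and 30.0 to 46.8. Of the exon bases of *Mzb1*, 57.2% are shared with *Gm50318* on the same strand, so its reads may be missing. A sum follows its most abundant genes. Of 8 tested squamous markers, 7 were called higher and 0 lower, with a median log2 fold change of 5.67. Whether the squamous RNA came from liver cells was not tested. Of 12 hepatocyte markers, 2 were called higher and 5 lower. Separate animals gave the libraries, and no other batch is given.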

Additional observations from a re-analysis of the deposited data

Results flagged for a closer look

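Among the 32 tested receptors and coregulators, no DIO + DHA library stood apart from the other 4 by Dixon's test (gap over range above 0.71 for 5 samples). The test was also run on 62 named genes of the other lists and flagged 4, where chance flags about 1 in 20. *Ehhadh* was highest in replicate 4 (377 CPM, next 361, gap over range 0.73), *Abcc2* lowest in replicate 6 (89.5 CPM, next 104, 0.778), *Cox6a1* highest in replicate 6 (1169 CPM, next 1056, 0.762), and *Mttp* highest in replicate 2 (114 CPM, next 103, 0.778). The DIO group, with 3 libraries, was too small for this test.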

How the results depend on the processing

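The fold change of *Hnf4a* and its call held under every setting, and *Rora* lost its call under limma-voom alone. Of the 7 calls by edgeR, 4 remained in number with DESeq2, 4 at an adjusted p under 0.01, and 1 by limma-voom, and leaving out 1 library gave 2 to 8. The share of all tested genes called also fell, from 15.2% to 10.6%, 9.87%, and 6.93%, respectively. On leaving out 1 library that share was 11.1 to 14.8%. Other receptors fell from 5 calls to 3 by limma-voom, and leaving out 1 library gave 3 to 5. LXR targets had 2 calls with DESeq2, 3 by limma-voom, 2 at 0.01, and 2 to 6 on leaving out 1 library. Thyroid hormone targets had 4 calls by limma-voom, and FXR and LRH-1 targets 4 by limma-voom, 5 at 0.01, 5 under the replicate block, and 5 to 8 on leaving out 1 library. The shared replicate numbers did not pair the mice (correlations of deviations -0.0457 to -0.00723). The replicate block called 6 of the receptors and coregulators, 5 of them shared with the 7, and 1538 of 12412 genes.

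Signs changed only for genes not called in any of these fits, the largest of them *Esrra* (-0.31 with all libraries, 0.0766 without DIO replicate 5) and *Rara* (0.22 with all libraries). Under the replicate block these were *Nr1h3* (0.0203), *Nr5a2* (0.0587), *Ppargc1b* (-0.114), and *Dhrs4* (0.00724), under limma-voom *Nr6a1* (0.226), and with library sizes only *Gstm1* (-0.014). On leaving out 1 library the log2 fold changes ran as follows. They were *Rxra* -0.0737 to 0.0134, *Rara* -0.0437 to 0.331, *Nr1h3* -0.0435 to 0.103, *Nr1i3* -0.559 to 0.122, *Nr2f6* -0.0766 to 0.095, *Nr5a2* -0.118 to 0.103, *Nr6a1* -0.302 to 0.495, *Esrra* -0.524 to 0.0766, *Ppargc1b* -0.0323 to 0.126, *Gstm1* -0.0253 to 0.0729, *Dhrs4* -0.0355 to 0.0171, and *Ttr* -0.0578 to 0.0111. The causes were not tested. With 3 DIO libraries, 1 of them of 1723800 counts, and few counts for *Nr4a1*, *Nr3c2*, *Ppard*, and the genes below the filter, small changes could not be detected.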
